A study of Saccharomyces cerevisiae with 4 samples.

Results

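The genes described here encode the proteasome of budding yeast, Saccharomyces cerevisiae, with 3 genes tied to it: RPN4, the transcription factor that drives proteasome genes, UMP1, a chaperone of core assembly, and UBI4, which encodes a chain of ubiquitin units. They were chosen by gene name from what is known of the proteasome. No measured value enters the rule, though earlier results of these data were known when the set was chosen. Of the 36 genes, 35 had a spot and were measured on all 4 arrays, out of 5137 genes so measured and 5574 named genes with a spot. All 14 core particle genes and 18 of the 19 regulatory particle genes were among them. SEM1, a small lid subunit, had 0 spots under its own gene identifier. A spot that carried one of its alternative names belonged to another gene and was not used.

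Each sample is 1 spotted 2-colour slide, with wild-type total RNA in the Cy3 channel and total RNA from lpz8 null cells in the Cy5 channel. The null cells were grown in low copper on 2 arrays and in high copper on the other 2. Replicate 2 of low copper and replicate 1 of high copper are marked as repeats. The labels give no copper concentration, no strain background, no number of clones, no culture behind each array and no copper condition for the wild-type RNA. The series is about transcription regulated by Haa1, and lpz8 was read here as HAA1. HAA1 encodes a copper-fist type transcription factor known for the response of yeast to weak acids. The log2 ratio at the HAA1 spot was -6.96 (replicate 1) and -4.15 (replicate 2) in high copper and -7.35 for replicate 2 in low copper, whose replicate 1 gave no value there.

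The proteasome breaks down proteins that carry ubiquitin chains. Its barrel-shaped core particle is a stack of alpha and beta rings, with the cutting sites inside the beta rings and the gate in the alpha rings. The regulatory particle caps the barrel: the ATPases of its base unfold the substrate, other base subunits bind ubiquitin, and the lid removes the ubiquitin chain. Rpn4 binds upstream of proteasome genes and is itself a short-lived proteasome substrate, which forms a feedback loop that keeps proteasome levels matched to need. Copper, as other metals, can damage proteins and so raise the load on this pathway.

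All values below are log2 ratios, null divided by wild type, with each array centred on its median, so a value above 0 means more RNA in the null than in the wild type, relative to the median spot. The direction was read from the dyes in the labels and the log base was taken as 2, since the sources used here give neither, and folds rest on that reading. Between 7254 and 8409 of 8832 spots per array had a value. Adjusted p-values come from limma with Benjamini-Hochberg adjustment over all 5137 genes, and a gene passed at an adjusted p under 0.05. Wild-type RNA was the Cy3 sample on every slide. The labels do not say whether it came from a single pool, so how far its own spread enters the ratios is not known. The dyes were never swapped, and a gene's dye effect and its genotype effect cannot be told apart. The cultures were measured in bulk: fewer cells with a transcript and less of it per cell cannot be told apart.

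On high copper replicate 1, a run of 528 spots appeared displaced by 24 spots. Spearman's rho with the mean of the other arrays over those spots was -0.04 for values as they stood and 0.55 after moving them back, against 0.58 over the rest of the slide. The run and the spots just after it touch 4 of the genes, PRE6, PUP1, RPT4 and RPN8, and these 4 are given as deposited and with the run moved back.

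Over both copper conditions, 4 proteasome genes passed with higher RNA in the null than in the wild type: PRE7, PRE5, SCL1 and PRE9. All 4 encode core particle subunits. Of all genes tested, 6.44% passed higher and 5.24% passed lower, so the core particle had 4 of 14 genes higher and 0 lower, and the regulatory particle had 0 of 18 in either direction. At an unadjusted p under 0.05, the counts were 8 of 14 for the core and 2 of 18 for the regulatory particle, against 1831 of all 5137 genes. The median of the core particle was 0.21, that of the regulatory particle 0.08 and that of all genes -0.02. In the core particle, 9 of 14 genes were above 0 on all 4 arrays, in the regulatory particle 4 of 18, and among all genes tested 20%. RPN9 alone of the 35 genes was below 0 on all 4 arrays, against 21.6% of all genes. Which genes passed depended on which array was left out, over the whole slide as among the 35 genes. With 1 array left out at a time, the core median ranged from 0.19 to 0.24 and the regulatory median from 0.06 to 0.07. Without the centring of the arrays 1 of the 35 genes passed, PRE7, while 181 of all 5137 genes passed higher.

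**Figure D1:**
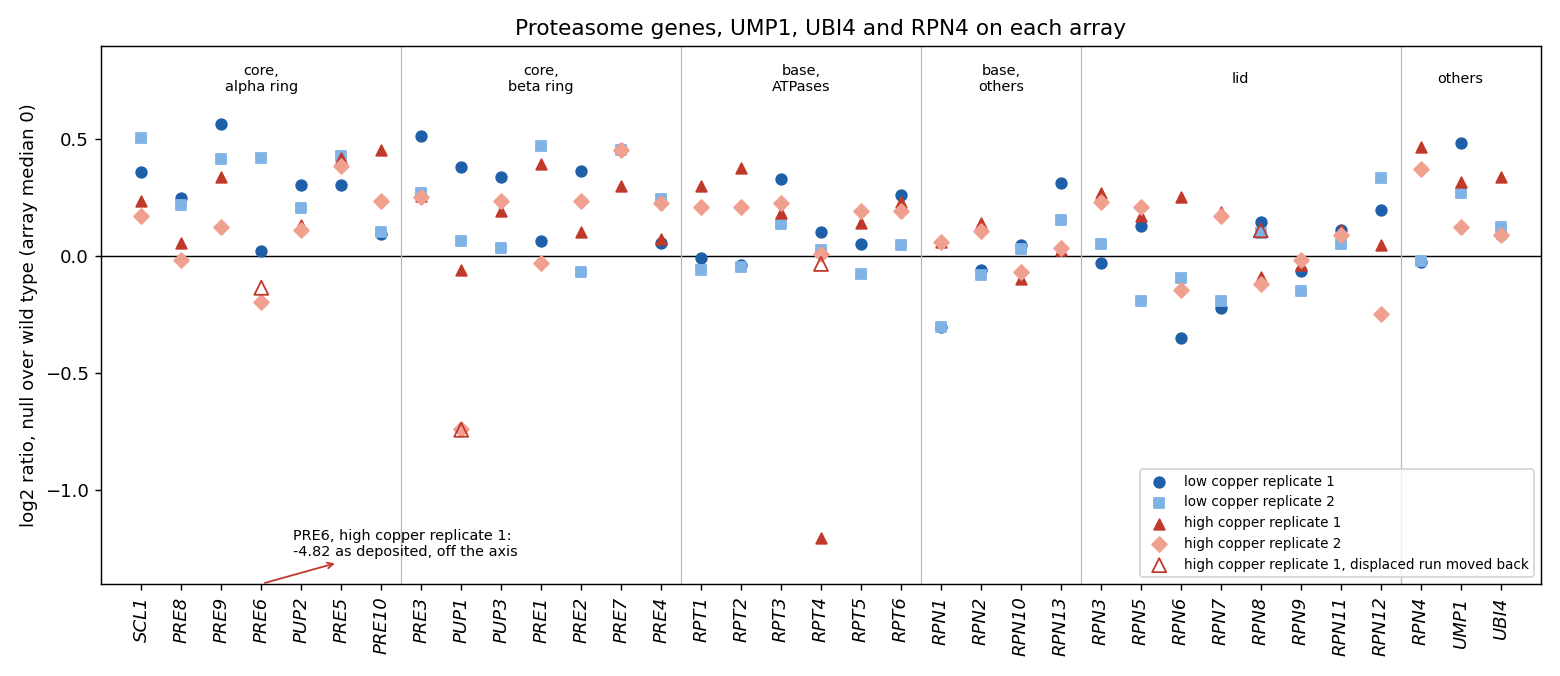
Log2 ratio of null over wild type (vertical axis, each array centred on its median) for each of the 35 measured genes (horizontal axis, grouped by role), with 1 symbol per array and open triangles for the 4 genes of the displaced run at their moved-back value on high copper replicate 1. PRE7 and PRE5 sat above 0 on all 4 arrays, RPN4 was near 0 in low copper and above 0 in high copper, and PRE6 on high copper replicate 1, at -4.82 as deposited, lies off the axis.

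Of the 7 alpha subunits, which form the outer rings and the gate of the core, 3 rose. PRE5, alpha subunit 6, was at 0.31 and 0.43 in low copper and at 0.42 and 0.39 in high copper. The copper conditions overlapped, and all 4 values lay close together. Its mean was 0.38 ± 0.06 (SD, n = 4), a 1.31-fold higher level in the null, and it passed (adjusted p = 0.0346).

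PRE9 encodes alpha subunit 3, the one alpha subunit yeast can live without. It was at 0.56 and 0.42 in low copper and at 0.34 and 0.13 in high copper. Both low copper arrays stood above both high copper arrays. The mean of 0.36 ± 0.18 (SD, n = 4), or 1.28-fold, passed (adjusted p = 0.0481). SCL1, alpha subunit 1, was at 0.36 and 0.51 in low copper and at 0.24 and 0.17 in high copper, so the low copper arrays were again the higher ones. Its mean was 0.32 ± 0.15 (SD, n = 4), 1.25-fold, with an adjusted p of 0.0449. The difference between the copper conditions did not pass for PRE9 (adjusted p = 0.422) or SCL1 (adjusted p = 0.408).

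The remaining alpha subunits did not pass. PUP2, alpha subunit 5, was at 0.31 and 0.21 in low copper and at 0.14 and 0.11 in high copper (mean 0.19 ± 0.09, SD, n = 4, adjusted p = 0.0902). PRE8, alpha subunit 2, was at 0.25 and 0.22 in low copper and at 0.06 and -0.01 in high copper (adjusted p = 0.171). In both genes the low copper arrays were the higher ones without overlap. PRE10, alpha subunit 7, showed the opposite order: it was at 0.10 on both low copper arrays and at 0.45 and 0.24 in high copper (mean 0.22 ± 0.17, SD, n = 4, adjusted p = 0.0892). PRE10 was the sole core gene of 14 with both high copper arrays above both low copper arrays, an order found in 25.3% of all genes tested.

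PRE6, alpha subunit 4, was at 0.02 and 0.42 in low copper and, as deposited, at -4.82 and -0.19 in high copper. The value of -4.82 was the lowest of all 5137 genes on high copper replicate 1. It lies in the displaced run, and with the run moved back the value was -0.13. The mean changed from -1.14 ± 2.46 to 0.03 ± 0.28 (SD, n = 4), with adjusted p-values of 0.354 and 0.812. Moved back, the high copper arrays lay close together, both below 0 and below both low copper arrays.

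Of the 7 beta subunits, 1 rose. PRE7, a non-catalytic beta subunit, was at 0.46 on both low copper arrays and at 0.30 and 0.46 in high copper. The conditions overlapped. Its mean of 0.42 ± 0.08 (SD, n = 4), 1.34-fold, was the highest of the 35 genes and passed (adjusted p = 0.0320). PRE7 also had the lowest adjusted p among them.

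The catalytic subunits are PRE3, PUP1 and PRE2, which cut after acidic, basic and hydrophobic residues. PRE3 was at 0.51 and 0.27 in low copper and at 0.26 on both high copper arrays. The mean of 0.32 ± 0.13 (SD, n = 4) had an adjusted p of 0.0544, and with the run moved back, which leaves the spot of PRE3 in place but changes the other genes of the fit, PRE3 passed (adjusted p = 0.0479). In that fit 5 of 14 core genes passed, against 8.1% of all genes passing higher. PRE2 was at 0.37 and -0.07 in low copper and at 0.10 and 0.24 in high copper, with overlap (adjusted p = 0.281).

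PUP1 is the second gene of the core in the displaced run. It was at 0.38 and 0.07 in low copper and, as deposited, at -0.06 and -0.74 in high copper. With the run moved back, high copper replicate 1 also read -0.74. The high copper mean was then -0.74 ± 0.003 (SD, n = 2) and PUP1 passed as lower in the null in high copper (adjusted p = 0.0482, against 2.29% of all genes passing lower), 1.67-fold. As deposited it did not pass in high copper (1.5% of all genes passed lower). With the run moved back, the difference of high minus low copper was -0.96 and did not pass (adjusted p = 0.196).

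The other beta subunits, PUP3, PRE1 and PRE4, carry no active site. PUP3 was at 0.34 and 0.03 in low copper and at 0.20 and 0.24 in high copper. PRE1 was at 0.07 and 0.47 in low copper and at 0.40 and -0.03 in high copper. PRE4 was at 0.06 and 0.24 in low copper and at 0.07 and 0.23 in high copper. In each of these genes the arrays of a condition differed by more than the condition means did, and none passed (adjusted p = 0.139, 0.227 and 0.186).

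**Figure D2:**
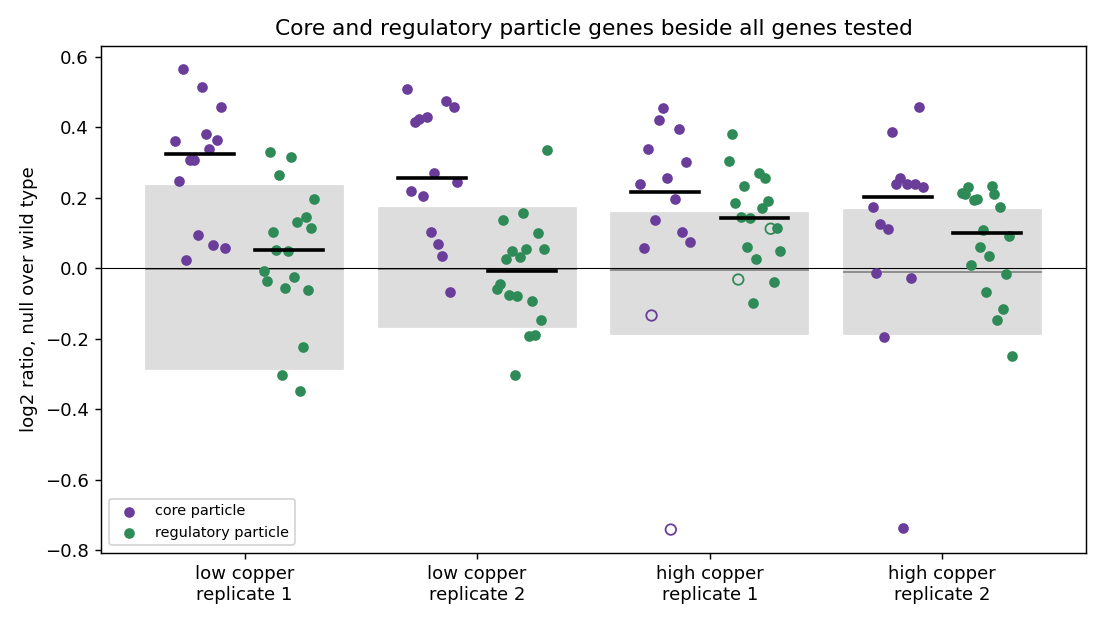
Log2 ratio of null over wild type (vertical axis) of each core particle gene (purple) and regulatory particle gene (green) on the 4 arrays (horizontal axis); black bars are the class medians, grey bands span the 25th to 75th percentile of all genes tested with their median as a grey line, and open circles are the 4 genes of the displaced run at their moved-back value, which the bars of that array use. The core median lay above the upper edge of the band on all 4 arrays, and the regulatory median lay inside it.

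The class medians differed by array. The core median was 0.32 and 0.26 in low copper and 0.22 and 0.20 in high copper. The regulatory median was 0.05 and -0.01 in low copper and 0.14 and 0.10 in high copper. The medians of all genes lay between -0.01 and 0.00, so the core stood above them on all 4 arrays and the regulatory particle on the high copper arrays and low copper replicate 1. Out of 14 core genes, 14 and 13 were above 0 on the low copper arrays and 12 and 10 on the high copper arrays. Out of 18 regulatory genes, 10 and 9 were above 0 in low copper and 14 and 13 in high copper.

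Gene length moved with these class values. The core genes are short and alike in annotated length, from 597 to 867 bases with a median of 764.5, while the regulatory genes run from 471 to 2982 bases with a median of 1297.5 and all genes have a median of 1245. Across all 5137 genes, Spearman's rho between ratio and length was -0.37 on both low copper arrays and -0.08 and -0.09 on the high copper arrays. Genes of up to 500 bases (493 genes) had medians of 0.24 and 0.25 in low copper and 0.07 on both high copper arrays. Genes of over 2000 bases (1129 genes) had medians of -0.22 and -0.10 in low copper and -0.01 on both high copper arrays. These are correlations across genes that share the same slides, and genes are not independent replicates.

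When a smooth trend on length was removed from each array, an alternative chosen after seeing the data, the core medians became 0.18 and 0.18 in low copper and 0.20 and 0.18 in high copper. The regulatory medians stayed at 0.05 and -0.01 in low copper and were 0.17 and 0.11 in high copper. In that fit 1 of the 14 core genes passed, PRE7 at a mean of 0.35 (adjusted p = 0.0442), against 4.3% of all genes passing higher. The means of the other 3 genes were then 0.31 for PRE5 (adjusted p = 0.0507), 0.30 for PRE9 (adjusted p = 0.0662) and 0.26 for SCL1 (adjusted p = 0.0746). Their calls were lost with the length term, while each mean stayed above 0.

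**Figure D3:**
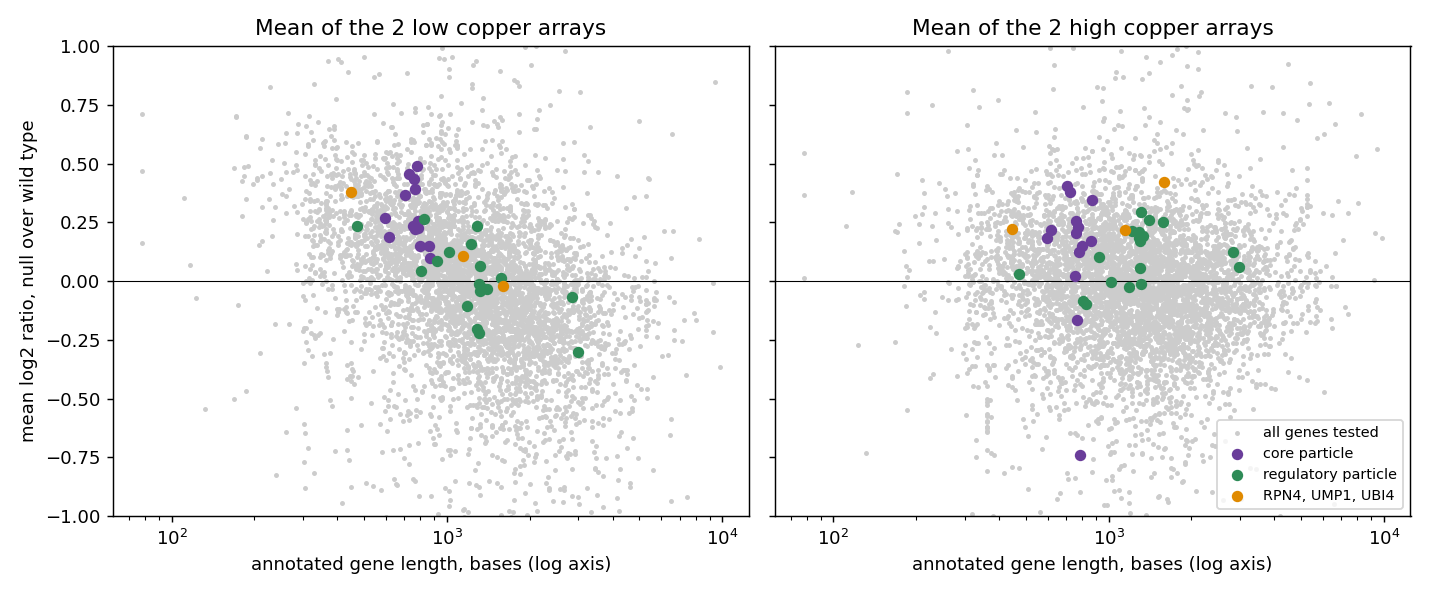
Mean log2 ratio of null over wild type (vertical axes) against annotated gene length in bases (horizontal log axes) in low copper and in high copper, n = 2 arrays each, for all genes tested (grey, as deposited; the axes leave out the most extreme genes) and for the core genes, the regulatory genes and RPN4, UMP1 and UBI4, with the 4 genes of the displaced run moved back. In low copper the ratio falls with length over all genes (rho -0.37 on each array), and in high copper the slope is slight (rho -0.08 and -0.09).

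No regulatory particle gene passed in low copper, in high copper or over both. Over both conditions the means had medians of 0.12 for the 6 base ATPases, 0.00 for the 4 other base subunits and 0.05 for the 8 lid subunits. The order of the copper conditions was counted in each class. Both high copper arrays stood above both low copper arrays in 9 of 18 regulatory genes and 1 of 14 core genes, against 25.3% of all genes. The reverse order held in 5 regulatory genes and 7 core genes, against 27.1% of all genes. With the length trend removed, high above low held in 9 of 18 regulatory genes and 2 of 14 core genes, against 26.3% of all genes.

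Among the base ATPases, which form the motor ring, RPT1 and RPT2 were just below 0 in low copper and above 0 in high copper. RPT1 was at -0.01 and -0.06 in low copper and at 0.30 and 0.21 in high copper. RPT2, whose tail opens the core gate, was at -0.04 on both low copper arrays and at 0.38 and 0.21 in high copper. For both genes the copper conditions did not overlap. The 2 spots of RPT2 differed by at most 0.09 on any array, and spot 2 was at -0.001 and 0.002 in low copper. The differences of high minus low copper, 0.29 for RPT1 and 0.34 for RPT2, did not pass (adjusted p = 0.328 and 0.312).

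RPT3 and RPT6 were above 0 on every array. RPT3 was at 0.33 and 0.14 in low copper and at 0.19 and 0.23 in high copper (mean 0.22 ± 0.08, SD, n = 4, adjusted p = 0.0869). RPT6 was at 0.26 and 0.05 in low copper and at 0.23 and 0.20 in high copper (adjusted p = 0.123). The copper conditions overlapped in both. RPT5 was at 0.05 and -0.08 in low copper and, higher on both arrays, at 0.14 and 0.19 in high copper (adjusted p = 0.361). RPT4 was at 0.10 and 0.03 in low copper and at -1.20 and 0.01 in high copper as deposited. Moved back, the value of -1.20 became -0.03, and the mean changed from -0.27 ± 0.63 to 0.03 ± 0.06 (SD, n = 4, adjusted p = 0.414 and 0.728).

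The base holds a pair of large scaffold subunits, RPN1 and RPN2, and the ubiquitin receptors RPN10 and RPN13. RPN1, which docks ubiquitin shuttles, was at -0.30 on both low copper arrays and at 0.06 on both high copper arrays. The spot averages of 1 condition were alike and the conditions did not overlap, but the 2 spots of RPN1 differed by up to 0.31 on 1 array. In low copper, spot 1 was at -0.15 and -0.34 and spot 2 at -0.46 and -0.27. The difference of high minus low copper, 0.36, did not pass (adjusted p = 0.278), nor did the low copper mean. RPN2 was at -0.06 and -0.08 in low copper and at 0.14 and 0.11 in high copper, the same order at a smaller size. RPN10 ran the other way, at 0.05 and 0.03 in low copper and -0.10 and -0.07 in high copper. RPN13 was at 0.31 and 0.16 in low copper and at 0.03 and 0.04 in high copper (adjusted p over both = 0.185). With the length trend removed RPN1 was at -0.09 and -0.20 in low copper and at 0.08 on both high copper arrays. RPN2 was then at 0.15 and 0.02 in low copper and at 0.16 and 0.13 in high copper, above 0 on all 4 arrays and with overlap.

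In the lid, RPN11 is the enzyme that cuts the ubiquitin chain off. It was at 0.11 and 0.06 in low copper and at 0.11 and 0.09 in high copper. All arrays lay within a narrow range just above 0 (mean 0.09 ± 0.03, SD, n = 4, adjusted p = 0.264). RPN7, a structural lid subunit, was at -0.22 and -0.19 in low copper and at 0.19 and 0.17 in high copper. The conditions were clearly apart with opposite signs. The difference of 0.39 had an unadjusted p of 0.0179 and did not pass over all genes (adjusted p = 0.262), where 0% of genes passed and 792 had an unadjusted p under 0.05.

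RPN3, RPN5 and RPN6 are further structural subunits of the lid. RPN3 was at -0.03 and 0.05 in low copper and at 0.27 and 0.23 in high copper, without overlap. RPN5 was at 0.13 and -0.19 in low copper and at 0.17 and 0.21 in high copper, where both arrays were higher. RPN6 was at -0.35 and -0.09 in low copper and at 0.25 and -0.15 in high copper; its arrays overlapped, and its 2 spots differed by up to 0.58 on 1 array.

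The other lid subunits did not follow that order. RPN12 was at 0.20 and 0.33 in low copper and at 0.05 and -0.25 in high copper, the low copper arrays being higher (adjusted p over both = 0.462). RPN9 was at -0.06 and -0.15 in low copper and at -0.04 and -0.02 in high copper (adjusted p = 0.416). RPN8, the partner of RPN11, was at 0.15 and 0.10 in low copper and at -0.09 and -0.12 in high copper as deposited. Its conditions stood apart as deposited and overlapped once the run was moved back, when -0.09 became 0.11 (mean 0.06 ± 0.12, SD, n = 4, adjusted p = 0.522).

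Length also moved with the regulatory genes' values, and in opposite ways in the copper conditions. Across the 18 genes, Spearman's rho between ratio and length was -0.53 and -0.62 on the low copper arrays and 0.47 and 0.52 on the high copper arrays. Across the 14 core genes it was 0.00 and -0.54 in low copper and -0.26 and -0.14 in high copper. The genes on each array share a slide, and these values are descriptions. RPN1 (2982 bases) had the lowest low copper mean of the regulatory genes, -0.30, and RPN2 (2838 bases) was at -0.07. The shorter RPN6, RPN7 and RPN9 lay between them, at -0.22, -0.21 and -0.10. What part length has in these values was not tested.

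RPN4, the activator of proteasome genes, was close to 0 in low copper and above 0 in high copper. It was at -0.02 on both low copper arrays and at 0.47 and 0.37 in high copper. The conditions did not overlap, and its 2 spots differed by at most 0.08 on any array. The high copper mean was 0.42 ± 0.07 (SD, n = 2), 1.34-fold, with an adjusted p of 0.0776, while 1.07% of all genes passed higher there. RPN4 passed there with the arrays scaled to equal spread (adjusted p = 0.0461), where 142 of 5137 genes passed higher. It also passed with the high copper pair fitted alone (adjusted p = 0.0281), where 395 of 5137 genes passed higher. In the other alternatives that left out no array its adjusted p lay between 0.0644 and 0.159. With 1 array left out at a time, its high copper mean lay between 0.37 and 0.47. Both ends are the value of the lone high copper array left in the fit, so this range cannot show how stable the mean is. The low copper mean was -0.02 (adjusted p = 0.864), where 0.234% of all genes passed higher and 0.428% lower. The difference of high minus low copper was 0.44 with a standard error of 0.11, an unadjusted p of 0.0132 and an adjusted p of 0.257. Over both conditions the mean was 0.20 ± 0.26 (SD, n = 4, adjusted p = 0.0815). With the length trend removed RPN4 was at 0.04 and 0.05 in low copper and at 0.50 and 0.43 in high copper, a difference of 0.42.

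RPN4 was 1 of 6 of the 35 genes below 0 on both low copper arrays and above 0 on both high copper arrays, with RPT1, RPT2, RPN1, RPN2 and RPN7. Of all genes tested, 7.03% had this order of signs. The other 5 are all regulatory particle genes, and none is in the core. For RPN4, RPT2 and RPN1, each with 2 spots, the order of signs holds for the spot average only. On the low copper arrays 1 spot of RPN4 was at 0.01 and -0.06 and the other at -0.06 and 0.02. Spot 2 of RPT2 was at 0.002 on low copper replicate 2, and spot 1 of RPN1 was at -0.04 on high copper replicate 1. With the length trend removed the count was 3, RPT2, RPN1 and RPN7, against 6.58% of all genes. The reverse order of signs held in 4 genes, RPN10, RPN8, PUP1 and PRE6, as deposited, against 7.88% of all genes.

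**Figure D4:**
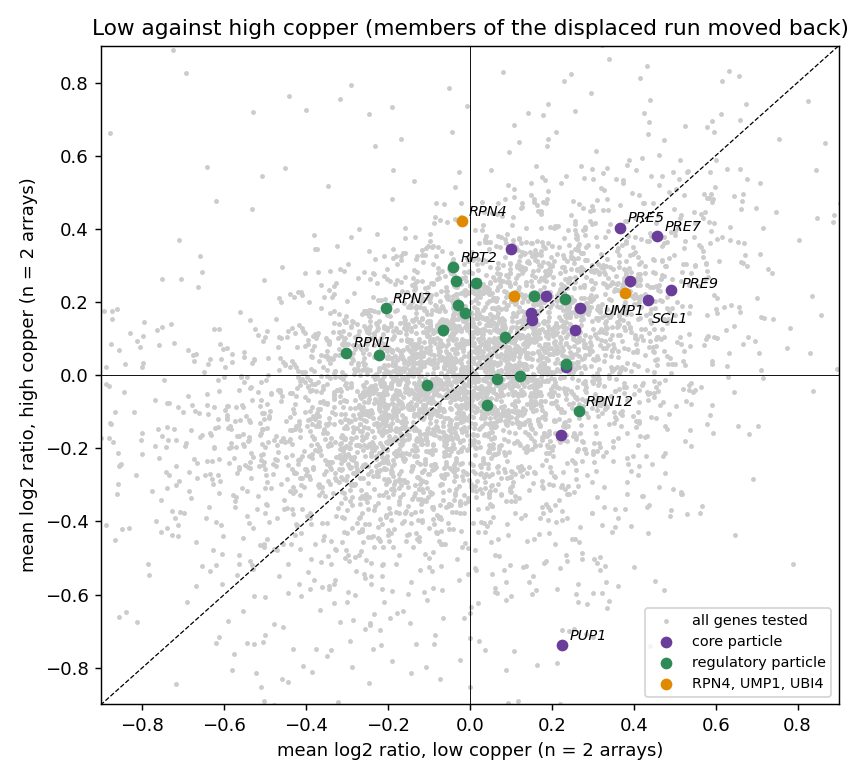
Mean log2 ratio of null over wild type in low copper (horizontal axis) against high copper (vertical axis), n = 2 arrays each, for all genes tested (grey, as deposited; the axes leave out the most extreme genes), core genes (purple), regulatory genes (green) and RPN4, UMP1 and UBI4 (orange), with the 4 genes of the displaced run moved back and the dashed line marking equal values. Most core genes lie to the right of 0, RPN4 lies at -0.02 in low copper and 0.42 in high copper, and PUP1 at -0.74 in high copper is the lowest of the core genes.

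No proteasome gene passed in low copper alone, in high copper alone as deposited, or for the difference between the conditions. At an unadjusted p under 0.05, the counts over the 35 genes were 11 in low copper, 8 in high copper and 4 for the difference, against 1569, 1263 and 792 of all 5137 genes. Each condition had 2 arrays, and nothing in the labels says that they came from separate cultures, so the p-values measure nothing beyond array-to-array spread, and that spread may be technical.

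The genes known to act on RPN4 were measured as well. HSF1, PDR1, PDR3 and YAP1 encode transcription factors that can raise RPN4 transcription, and 0 of these 4 passed with the values as deposited and no length term. HSF1, the heat shock factor, was at 0.31 and 0.20 in low copper and at 0.37 and 0.24 in high copper (mean 0.28, adjusted p = 0.0560), and it passed with the length trend removed (adjusted p = 0.0483). PDR3, a drug resistance factor, was at -0.02 and 0.25 in low copper and at 0.42 and 0.85 in high copper, so both high copper arrays were the higher ones (high copper mean 0.64, adjusted p = 0.101). PDR1, its paralog, was at 0.12 and 0.08 in low copper and at 0.17 and 0.26 in high copper. YAP1, the oxidative stress factor, was at 0.00 and 0.05 in low copper and at -0.10 and -0.09 in high copper.

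Of the genes whose products mark the Rpn4 protein for breakdown, UBR2, MUB1 and RAD6, 0 of 3 passed. UBR2, the ubiquitin ligase for Rpn4, was at -0.43 and -1.17 in low copper and at -0.20 and -0.15 in high copper. It was below 0 on all 4 arrays (mean -0.49 ± 0.47, SD, n = 4, adjusted p = 0.0873). UBR2 is 5619 bases long. With the length trend removed it was at -0.12 and -1.05 in low copper and at -0.23 and -0.21 in high copper. The mean was then -0.40 (adjusted p = 0.185). Whether length bears on these values was not tested. MUB1, the partner of Ubr2, was at -0.18 and -0.09 in low copper and at 0.14 and 0.03 in high copper. RAD6, the conjugating enzyme, was at -0.28 and 0.46 in low copper and at 0.31 and 0.19 in high copper.

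UMP1, the chaperone that is enclosed in the maturing core and is its first substrate, was at 0.48 and 0.27 in low copper and at 0.32 and 0.13 in high copper. It was above 0 on all 4 arrays, as were the core genes that rose, with overlap between conditions and up to 0.25 between its 2 spots on 1 array. Its mean of 0.30 ± 0.15 (SD, n = 4), 1.23-fold, did not pass (adjusted p = 0.0664). UMP1 is 447 bases long, and with the length trend removed its mean was 0.17 (adjusted p = 0.179). Of the other 8 assembly chaperone genes tested, ADD66, a core assembly factor, rose. It was at 0.43 and 0.39 in low copper and at 0.10 and 0.20 in high copper, with the low copper arrays higher (mean 0.28 ± 0.16, SD, n = 4, adjusted p = 0.0497). ADD66 had a mean of 0.23 with the length trend removed and did not pass (adjusted p = 0.0717).

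UBI4, the stress-induced polyubiquitin gene, was at 0.09 and 0.13 in low copper and at 0.34 and 0.09 in high copper, where the conditions overlapped (mean 0.16 ± 0.12, SD, n = 4, adjusted p = 0.170). Its 3 spots differed by up to 0.31 on 1 array. The ubiquitin genes fused to ribosomal proteins stood higher, and 2 of 3 rose. RPL40A was at 0.69 and 0.63 in low copper and at 0.58 and 0.33 in high copper (mean 0.56 ± 0.16, SD, n = 4, 1.47-fold, adjusted p = 0.0273). RPL40B was at 0.41 and 0.39 in low copper and at 0.25 and 0.17 in high copper (mean 0.31 ± 0.12, SD, n = 4, adjusted p = 0.0430). RPL40A still passed with the length trend removed (mean 0.51, adjusted p = 0.0351) and RPL40B did not (mean 0.24, adjusted p = 0.0648). RPS31 had a mean of 0.41 and did not pass (adjusted p = 0.0533). The RPL40 genes are near-identical copies, and how far their spots tell them apart was not tested.

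**Figure D5:**
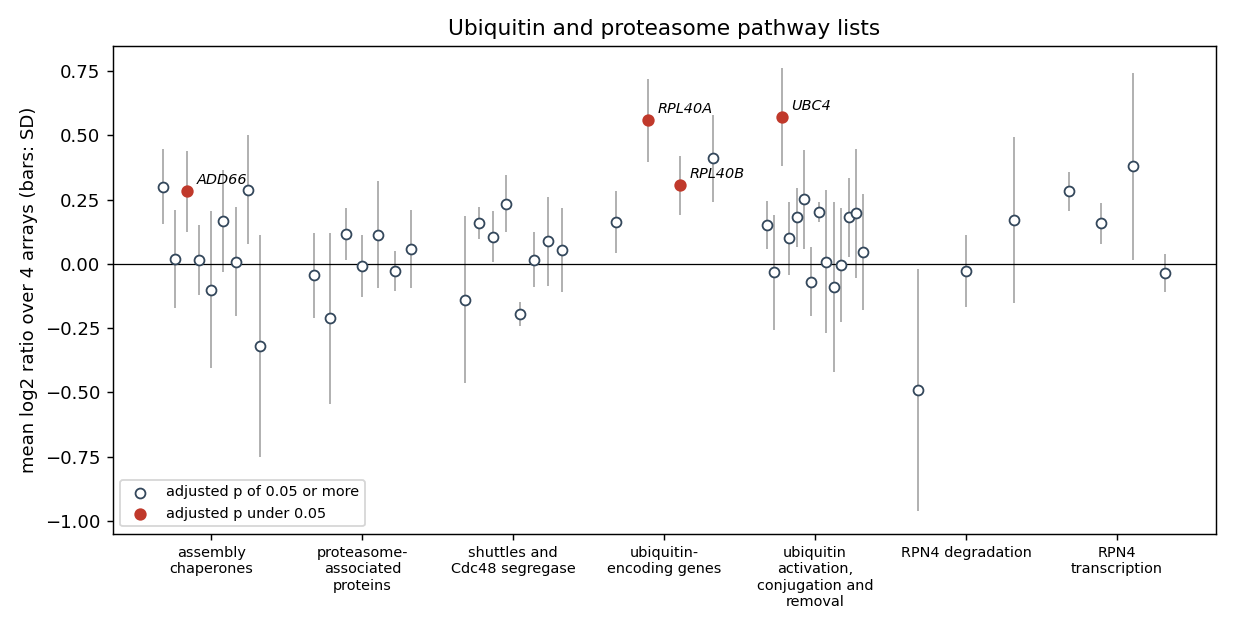
Mean log2 ratio of null over wild type over all 4 arrays (points, bars are the SD, n = 4) for the genes of the 7 ubiquitin and proteasome pathway lists, UMP1 and UBI4 included, with genes at an adjusted p under 0.05 in red. ADD66, RPL40A, RPL40B and UBC4 are the genes past the threshold, all above 0.

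Over all 7 pathway lists, 47 genes other than the proteasome genes above were tested; 4 rose over both conditions and 0 fell, against the 6.44% and 5.24% given above for all genes. Their median was 0.09. The fourth gene that rose was UBC4, a main ubiquitin-conjugating enzyme for damaged and short-lived proteins. UBC4 was at 0.32 and 0.53 in low copper and at 0.72 and 0.71 in high copper. Both high copper arrays were higher. The mean of 0.57 ± 0.19 (SD, n = 4), 1.49-fold, passed over both (adjusted p = 0.0252), and so did the high copper mean of 0.72 (adjusted p = 0.0449). UBC4 passed over both with the length trend removed (adjusted p = 0.0369) and not in high copper (adjusted p = 0.0526). The paralog UBC5 has a similar sequence and was at -0.05 and 0.25 in low copper and at 0.18 and 0.01 in high copper. Of the shuttle and Cdc48 list, 0 of 8 genes passed, of the proteasome-associated list 0 of 7, and of the list of ubiquitin activation, conjugation and removal 1 of 14, which was UBC4. With the run moved back, HSF1 (adjusted p = 0.0493) and RPS31 (adjusted p = 0.0469) passed too, and 6 of the 47 genes were called higher (8.1% of all genes in that fit). Without high copper replicate 1 or high copper replicate 2, 0 genes of the whole slide passed over both conditions, these 4 included.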

How the data were processed

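Per the labels, each sample is 1 spotted 2-colour array with wild-type RNA in Cy3 and null RNA in Cy5. The authors deposited 1 log2 ratio per spot; that the base is 2 and that the ratio runs Cy5 over Cy3 are readings, and the scanner, background correction and normalization are not given in the sources used here. Channel intensities were not used here, and the number of arrays limits the precision. The deposited log2 ratios were centred on each array's median over spots measured on all 4 arrays (shifts of -0.16 to 0.01), and such spots of a gene were averaged. All 6956 named spots matched RefSeq by gene identifier, and 1876 had no name.

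A mean per copper condition was fitted with lmFit and eBayes of limma 3.58.1 in R 4.3.3 (2 residual and 2.22 prior degrees of freedom). P-values were adjusted by Benjamini-Hochberg over all genes, threshold 0.05. The fit was run on simulated data with the same noise spread for all genes, no length trend and no displaced run. It was not tested under those features of the real arrays. The alternatives were no centring, equal spread, genes on at least 3 arrays, spots apart, each pair alone, no copper term, a replicate block, the displaced run moved back or missing, each array left out, and, chosen after seeing the data, all measured spots averaged and a lowess on log2 gene length removed. Of lengths, 96.7% are multiples of 3, as coding lengths are. All 35 measured genes are named, with genes of the 7 pathway lists past the threshold and all genes of the RPN4 lists. Members and lists were chosen with earlier results of these data known.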

Additional observations from a re-analysis of the deposited data

Results flagged for a closer look

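In 10 of the 35 proteasome genes, both low copper arrays had one sign and both high copper arrays the other, as in 14.9% of all genes tested. With the length trend removed the count was 4 of 35, against 13.8% of all genes. The difference of high minus low copper was tested in limma for each, and none passed (adjusted p between 0.257 and 0.561). The differences were 0.44 for RPN4, 0.39 for RPN7, 0.36 for RPN1, 0.34 for RPT2, 0.29 for RPT1 and 0.19 for RPN2, all with low copper below 0. They were -0.12 for RPN10, -0.22 for RPN8, -0.62 for PUP1 and -2.73 for PRE6, all with high copper below 0. RPN8, PUP1 and PRE6 lie in the displaced run of high copper replicate 1, and with the run moved back the differences were -0.39 for PRE6 and -0.96 for PUP1, while RPN8, at -0.12, no longer changed sign on every array. Of the genes that act on RPN4, MUB1 had a difference of 0.22 (adjusted p = 0.408) and YAP1 one of -0.12 (adjusted p = 0.565).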

How the results depend on the processing

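Over both conditions, 4 of the 35 genes passed; the count was 1 without centring, 2 with genes on at least 3 arrays, 2 without a copper term, 0 with a replicate block by repeat mark, 2 with the run taken as missing and 1 with the length trend removed. PRE7 passed in each of these but the block. Of all genes 600 passed, 292 without a copper term and 36 with the block. The repeat marks share only a mark (correlation of deviations 0.09), and the block left 0 genes in low copper and 0 in high copper.

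Without centring the core median over both fell from 0.21 to 0.17 and the regulatory median from 0.08 to 0.036; in low copper they were 0.15 and -0.10, and for high minus low copper 0.00 and 0.24. With the length trend removed the core median was 0.13 over both, 0.13 in low copper, 0.17 in high copper and -0.017 for high minus low, where the regulatory median was 0.091. With spots apart that regulatory median was 0.19, and with scaled arrays the high copper core median was 0.22.

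In low copper 34 genes passed, 19 without centring, 61 with scaled arrays, 0 with the low copper pair alone and 63 with the run moved back. In high copper 132 passed, 363 with scaled arrays, 71 with genes on at least 3 arrays, 898 with the high copper pair alone and 201 with the run moved back. Of the 35 genes, 0 passed in high copper, 1 with scaled arrays (RPN4), 3 with the high copper pair alone (PRE5, PRE7 and RPN4) and 1 with the run moved back (PUP1). For high minus low copper 2 genes passed with the run moved back, neither of them a proteasome gene. The causes were not tested.

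Leaving out 1 array each, the proteasome genes passing ranged from 0 to 10 over both, 0 to 4 in low copper, 0 to 3 in high copper and 0 to 0 for the difference. All genes passing ranged from 0 to 1900, 0 to 1374, 0 to 837 and 0 to 702. The core median ranged from 0.19 to 0.24, 0.24 to 0.32, 0.19 to 0.22 and -0.17 to -0.087, and the regulatory median from 0.06 to 0.07, 0.00075 to 0.0455, 0.10 to 0.14 and 0.0485 to 0.16, so neither class median changed sign. The lone array of a condition was assumed to vary like the other pair.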
